A study of Mus musculus with 29 samples.

Results

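Blood stem and progenitor cells labelled as lacking both Mysm1 and Puma were compared with cells of the same sort labelled wild type. The members were chosen by their labels, with earlier results of these data known, and group names are those of the labels throughout. They are 7 libraries labelled Mysm1-/-Puma-/- (named B1, B3, B5 and B6 or P1 to P3) and 4 labelled Mysm1+/+Puma+/+, here called wild type (D1, D2, D3-4 and W1), 11 of the 29 libraries of the series. Donor mice were C57BL/6 and 8 to 12 weeks old, and marrow cells were sorted as Lin-cKit+Sca1+CD150+ cells, the fraction that holds stem cells. Besides these groups, 4 libraries labelled Mysm1-/-Puma+/- from the same sort were used, and 3 Mysm1-/-Puma-/- and 3 wild-type libraries of Lin-cKit+Sca1+CD150- cells, the fraction that holds multipotent progenitors. The fits also held 2 CD150-positive libraries labelled Puma-/-, and the CD150-negative libraries labelled Puma-/- and Mysm1-/-Puma+/-. With them the fits took in 17 CD150-positive and 12 CD150-negative libraries. These added libraries helped to set the spread but were not compared. The study measured RNA depleted of ribosomal RNA by stranded low-input sequencing. The labels name whole-body genotypes with no driver or Cre line and do not say how many animals went into a library, so p-values measured the spread between libraries, which may be technical.

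Mysm1 encodes a deubiquitinase that removes ubiquitin from histone H2A, and mice without it lose blood stem cells. Bbc3 encodes Puma, a BH3-only protein that starts cell death at the mitochondrion and is switched on by the transcription factor p53. Stress raises p53 activity, and p53 then switches on genes that halt the cell cycle, genes that kill the cell, genes of repair and metabolism, and genes that restrain p53 itself. In cells without Puma 1 arm of the death programme is missing, while the other targets can still be read from their RNA.

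The sort was checked against its markers. Slamf1, which encodes CD150, lay between 11.2 and 20.2 CPM in Mysm1-/-Puma-/- and between 16.5 and 22.9 in wild type, against 1.01 or less in wild-type CD150-negative cells, where CPM are counts scaled to library size. Kit, the receptor used in the sort, was at 585 to 821 CPM in Mysm1-/-Puma-/- and 484 to 692 in wild type. Flt3, a progenitor gene, was at 30.2 to 191 CPM in Mysm1-/-Puma-/- and 27.3 to 92.1 in wild type, below the 570 or more of wild-type CD150-negative cells. Library totals ran from 13948532 to 25281099 counts in Mysm1-/-Puma-/- and from 12304713 to 22570971 in wild type (exact permutation test, two-sided, p = 0.77). Reads on odorant, pheromone and trace amine receptor genes, taken as background, ran from 622 to 7491 CPM of the totals in Mysm1-/-Puma-/- and from 2564 to 8186 in wild type (exact permutation test, p = 0.461), with the highest in B5 and D2. Fos, an immediate early gene, was at 11.5 to 120.5 CPM in P1, P2 and P3 and 218 in W1, against 4.23 or less in the B and D libraries. The P and W libraries thus held more Fos than the others. Flt3 also set them apart, at 92.1 CPM or more in each, against 80.8 or less in every B and D library. Mpo, which encodes myeloperoxidase, was at 380 or more in each, against 365 or less in the rest. Slamf1 and Kit did not separate them. Whether the sorted cells differed between these sets was not tested. Results are also given without the P and W libraries. On the first principal component (46.3% of the variance) the P and W libraries did not stand apart as a set. Its high end held P1, P2 and B3, the libraries of lowest background (622, 1390 and 1447 CPM). D2 and B5, those of highest background, lay at its low end. The order of libraries on this component thus largely followed background, a relation that was not tested. All 11 libraries held Ddx3y, a Y-linked gene, at 61.7 CPM or more and little Xist, at 12.8 or less, although the labels call them pooled male and female.

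p53 target genes stood among the rises in the libraries labelled Mysm1-/-Puma-/-. Of 20944 genes tested, 52 rose and 9 fell (edgeR quasi-likelihood test, Benjamini-Hochberg adjusted p under 0.05), which is 0.248% and 0.043% of all genes. Of 76 genes on 3 lists of p53 targets 20 rose and 0 fell, 60 lay above 0, and their median log2 fold change was 0.42 against -0.05 over all genes. The lists were chosen with earlier results of these data known, so these counts are no independent test. Over all genes tested 44.9% lay above 0, and 955 were higher and 601 lower at an unadjusted p under 0.05. By DESeq2 142 genes rose and 63 fell, and with RLE size factors 60 rose and 21 fell. The ranges of the groups did not overlap for 58 of the 61 called genes, while over all genes 1.01% were higher and 0.735% lower without overlap. Without the P and W libraries 35 of 20543 genes rose and 3 fell, 0.17% and 0.0146%. Of those 38 genes 37 were among the 61, and all 61 kept their sign. Of the p53 targets 18 rose there, with a median of 0.44. Without the libraries of high background (B5, D2 and C2-5, the last a Puma-/- library of the same fit, a choice made after seeing the data) 42 genes rose and 17 fell. There Mysm1 (adjusted p = 0.0539), Casp1 (0.0539), Pvt1 (0.0539), Nkg7 (0.0566), Zfp365 (0.0589), Gm6525 (0.0745), Igtp (0.0787) and Cd74 (0.16) of the genes described here lost their call. Sulf2, Pvt1, H2-Ab1 and A930001C03Rik overlap a gene on the other strand and Ak1 overlaps Eng on its own strand, and the strand setting of the counting is not given in the sources used here, so part of their reads may belong to the neighbour.

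**Figure D1:**
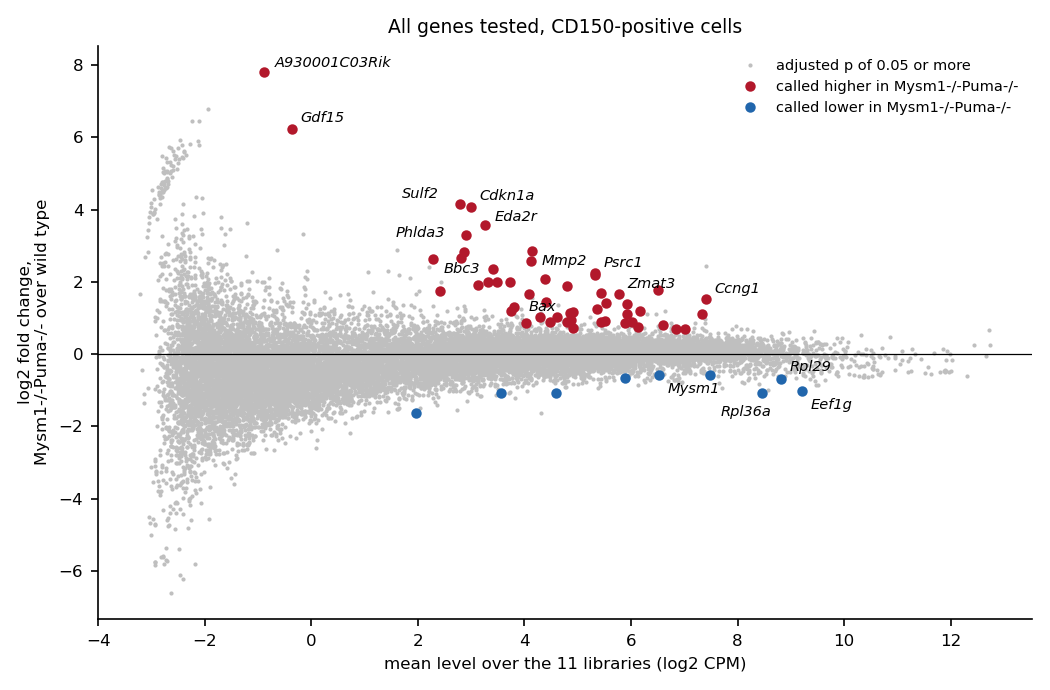
Log2 fold change of Mysm1-/-Puma-/- over wild type (vertical axis) against the mean level in log2 CPM (horizontal axis) of each of 20944 genes in CD150-positive cells. Red points are the 52 genes called higher and blue points the 9 called lower, and the upper part of the plot is led by Cdkn1a, Sulf2 and Eda2r among genes of moderate level. The fitted values of Gdf15 and A930001C03Rik rest on wild-type counts at or near 0.

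The targeted genes were examined first. Mysm1 (build NCBIM37, chr4:94608731-94645791, minus strand) lay between 67.7 and 87.7 CPM in Mysm1-/-Puma-/- (median 84.3). In D1, D2, D3-4 and W1 it was at 111, 118, 125 and 123 CPM. The groups did not overlap, and the log2 fold change was -0.57 ± 0.11 (SE, adjusted p = 0.0198). The call ended without P1 (0.0586), P2 (0.0547), D2 (0.0616), D3-4 (0.0925) or W1 (0.0531) and without all P and W libraries (0.374). Bbc3 (chr7:16894965-16903554, plus strand) lay between 15.5 and 25.2 CPM in Mysm1-/-Puma-/- (median 18.6). It was at 4.16, 3.36, 2.86 and 4.63 CPM in the wild-type libraries. Reads of the gene were thus more frequent in the libraries labelled as lacking Puma, by a log2 fold change of 2.36 ± 0.21 (adjusted p = 1.4e-06). The exons removed in the mutant alleles are not given in the labels, so these counts over whole genes check neither genotype and show no protein.

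**Figure D2:**
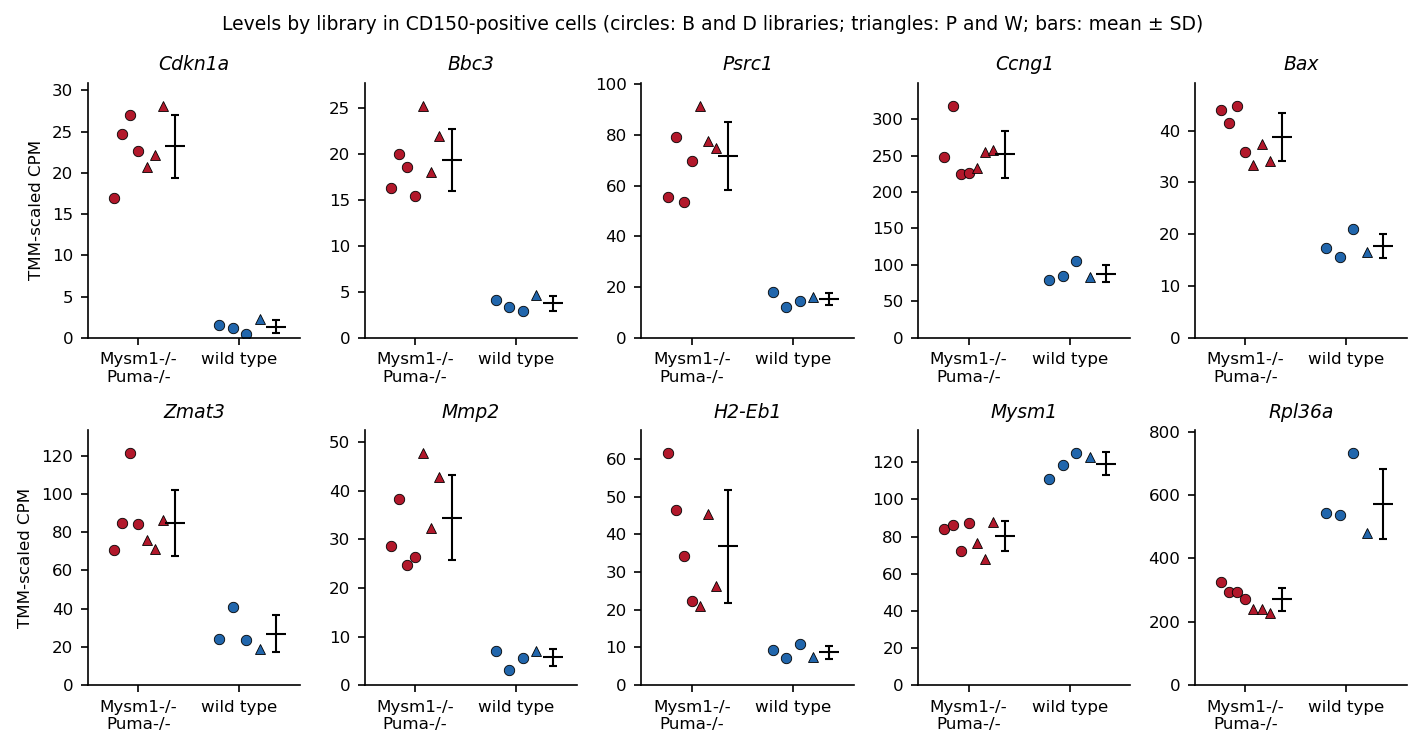
TMM-scaled CPM (vertical axes, from 0) of 10 genes in each library, Mysm1-/-Puma-/- at the left and wild type at the right of each panel. Circles are B and D libraries, triangles P and W libraries, and bars the mean ± SD (n = 7 and 4). The groups do not overlap in any panel: 8 genes are higher, and Mysm1 and Rpl36a lower, in Mysm1-/-Puma-/-.

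Genes by which p53 halts the cell cycle were led by Cdkn1a, which encodes the kinase inhibitor p21. Of 16 tested arrest genes 4 rose and 0 fell, with a list median of 0.40. Cdkn1a (chr17:29227924-29237667, plus strand) was at 16.96 to 28.1 CPM in Mysm1-/-Puma-/- (median 22.7) and at 1.499, 1.20, 0.396 and 2.34 CPM in D1, D2, D3-4 and W1. Every Mysm1-/-Puma-/- library lay above every wild-type library, with a log2 fold change of 4.08 ± 0.36 (adjusted p = 1.4e-06). Psrc1, a spindle protein and p53 target, was at 53.4 to 91.3 CPM in Mysm1-/-Puma-/- (median 74.9), against 17.9, 12.3, 14.4 and 15.9 in wild type (2.24 ± 0.20, adjusted p = 1.4e-06). Ccng1, cyclin G1, which acts with a phosphatase on Mdm2, was at 225 to 318 CPM in Mysm1-/-Puma-/- (median 248), against 79.9, 84.8, 105 and 82.8 in wild type (1.51 ± 0.15, adjusted p = 4.5e-06). Zfp365, a zinc finger protein of genome stability, was at 6.15 to 10.9 CPM in Mysm1-/-Puma-/-, against 0.722, 3.20, 3.22 and 3.14 in wild type (1.75 ± 0.36, adjusted p = 0.0313). Its call was lost with P and W libraries left out (0.303) and without B1 (0.0571), B3 (0.0693), P2 (0.0655), P3 (0.0713), D1 (0.0681), D2 (0.0643), D3-4 (0.0711) or W1 (0.0578). Among arrest genes that did not pass, Btg2, an antiproliferative gene, had 0.93 ± 0.29 (adjusted p = 0.313), and Gadd45a, a stress sensor, had -0.13 ± 0.26 (adjusted p = 0.93). The summed level of the arrest list was 484 to 660.3 CPM in Mysm1-/-Puma-/- and 236 to 343 in wild type, without overlap.

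The bases just before the start of these genes were searched for the p53 half-site, the 10-base consensus bound by a pair of p53 molecules, which reads as itself on the other strand. Promoters were taken from RefSeq on build GRCm38.p6 as the 250 bases before each annotated start. Of 32851 promoters 7.13% held at least 1 match, against 13 of 91 promoters (14.3%) of 62 genes on the p53 target lists and 7 of 49 (14.3%) of 37 genes that rose. Cdkn1a and Ccng1 of the arrest genes, Bax of the death genes, and Bbc3 are printed 5′ to 3′ with half-sites in capitals. The first 3 were chosen because a window of theirs held a match, and Bbc3 because it is a targeted gene. No window of Psrc1, Zfp365, Eda2r or Casp1 held one, and among the called p53 targets 3 of 27 windows (11.1%) did.
Cdkn1a, chr17:29090729-29090978, plus strand: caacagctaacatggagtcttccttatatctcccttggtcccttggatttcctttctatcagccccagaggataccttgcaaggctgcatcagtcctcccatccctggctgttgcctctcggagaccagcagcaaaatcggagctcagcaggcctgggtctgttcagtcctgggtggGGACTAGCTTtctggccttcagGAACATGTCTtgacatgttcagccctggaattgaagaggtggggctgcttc
Ccng1, chr11:40755287-40755536, minus strand: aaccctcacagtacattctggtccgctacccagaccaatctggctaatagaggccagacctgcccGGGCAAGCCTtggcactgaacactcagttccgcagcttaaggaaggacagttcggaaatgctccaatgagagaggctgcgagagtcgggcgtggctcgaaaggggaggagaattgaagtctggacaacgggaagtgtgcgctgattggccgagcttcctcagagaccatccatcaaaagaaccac
Bax, chr7:45466899-45467148, minus strand: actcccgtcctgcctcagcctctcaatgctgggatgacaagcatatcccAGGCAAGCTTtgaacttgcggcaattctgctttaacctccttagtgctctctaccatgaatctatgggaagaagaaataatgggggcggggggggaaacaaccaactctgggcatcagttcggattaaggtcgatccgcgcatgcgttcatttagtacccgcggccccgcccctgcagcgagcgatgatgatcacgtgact
Bbc3, chr7:16309333-16309582, plus strand: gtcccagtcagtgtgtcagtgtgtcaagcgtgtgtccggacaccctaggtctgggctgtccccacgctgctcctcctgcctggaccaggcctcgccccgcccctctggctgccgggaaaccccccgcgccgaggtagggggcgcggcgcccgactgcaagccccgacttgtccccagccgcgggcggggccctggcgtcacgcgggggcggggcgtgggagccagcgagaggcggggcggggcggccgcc
The Cdkn1a start shown is the upstream one of the pair in the table, and its window held matches that begin 73 and 51 bases before the start, GGACTAGCTT and GAACATGTCT. Ccng1 held GGGCAAGCCT 185 bases and Bax AGGCAAGCTT 201 bases before the start. None of the 3 Bbc3 windows held a match, which says only that these letters are not in those bases.

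Genes by which p53 promotes death rose as well, Bbc3 among them. Of 18 tested death genes 6 rose and 0 fell, 17 lay above 0, and the list median was 0.64. Eda2r, a death-linked receptor related to the TNF receptors, was at 24.1 to 33.4 CPM in Mysm1-/-Puma-/- (median 29.8) and at 4.22, 1.52, 4.14 and 0 in wild type (3.57 ± 0.51, adjusted p = 6e-04). Zmat3, a zinc finger protein that binds RNA, was at 70.5 to 121 CPM in Mysm1-/-Puma-/- (median 84.3), against 24.3, 40.9, 23.4 and 18.95 in wild type (1.66 ± 0.20, adjusted p = 7.2e-05). Bax, which opens the outer mitochondrial membrane, was at 33.5 to 44.7 CPM in Mysm1-/-Puma-/- (median 37.3), against 17.4, 15.7, 21.1 and 16.7 in wild type (1.13 ± 0.16, adjusted p = 0.000592). For each of these genes all 7 Mysm1-/-Puma-/- libraries lay above all 4 wild-type libraries. Trp53inp1, which promotes p53 phosphorylation, was at 95.3 to 198 CPM in Mysm1-/-Puma-/-, against 40.8, 26.8, 48.2 and 56.9 in wild type (1.78 ± 0.23, adjusted p = 0.000187). Casp1, the caspase that processes interleukin 1 beta, was at 29.7 to 48.9 CPM in Mysm1-/-Puma-/-, against 21.0, 14.7, 24.8 and 17.9 in wild type (0.95 ± 0.18, adjusted p = 0.0102). The call of Casp1 ended without D2 (0.069), W1 (0.0531) or the P and W libraries (0.186). Pmaip1, which encodes the BH3-only protein Noxa, had 3.15 to 23.0 CPM in Mysm1-/-Puma-/- and 0.793 to 3.28 in wild type, and at 2.43 ± 0.53 it missed the threshold (adjusted p = 0.0505). Fas, the death receptor, had 0.66 ± 0.38 (adjusted p = 0.727), and Apaf1, the core of the apoptosome, 0.42 ± 0.13 (adjusted p = 0.296).

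Of 19 further genes of the Bcl2 family, guards and killers of the mitochondrion, 0 rose and 0 fell by edgeR, with 1 at an unadjusted p under 0.05, Bcl2l11, which encodes Bim (0.47 ± 0.22, adjusted p = 0.664). Their median was 0.01, and 10 lay above 0. Of 14 caspase genes Casp1 alone was called. Casp12 and Casp4, neighbours of Casp1 in the inflammatory group, had 0.68 ± 0.18 and 0.71 ± 0.21 (adjusted p = 0.162 and 0.258). Missing the threshold does not show that these levels are alike.

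The longest p53 list, of repair, metabolic and other targets, held 10 rises among 42 tested genes, no fall, and a median of 0.34. Sulf2, a sulfatase that edits heparan sulfate, was at 15.7 to 28.9 CPM in Mysm1-/-Puma-/- (median 18.6) and at 0.278, 2.48, 0.617 and 1.48 in wild type (4.15 ± 0.46, adjusted p = 1.8e-05). Phlda3, a repressor of Akt, was at 13.3 to 24.1 CPM in Mysm1-/-Puma-/- (median 19.2), against 2.44, 2.24, 0.352 and 2.43 in wild type (3.30 ± 0.38, adjusted p = 3e-05). Ak1, adenylate kinase 1, was at 35.7 to 54.1 CPM in Mysm1-/-Puma-/- (median 45.8), against 17.2, 10.0, 7.84 and 14.3 in wild type (1.88 ± 0.21, adjusted p = 1.8e-05). Both groups stayed apart for all 3 genes. Epha2, an ephrin receptor, was at 9.60 to 22.5 CPM in Mysm1-/-Puma-/-, against 0.777, 1.36, 0.925 and 6.38 in wild type, the last in W1 (2.84 ± 0.49, adjusted p = 0.00553, and 3.80 with P and W libraries left out). Cpt1c, a brain-type carnitine palmitoyltransferase relative, had 2.63 ± 0.40 (adjusted p = 0.00109), and Sesn2, sestrin 2, a sensor of leucine and restraint of mTORC1, had 1.92 ± 0.28 (adjusted p = 0.000656). Ptp4a3, a phosphatase, had 1.19 ± 0.17 (adjusted p = 0.000528). Mgmt, which removes alkyl groups from guanine, had 1.30 ± 0.21 (adjusted p = 0.00182), and Slc19a2, a thiamine transporter, 1.20 ± 0.20 (adjusted p = 0.00306, but 0.13 without the P and W libraries). Gdf15, a secreted stress hormone, had 314 counts over the Mysm1-/-Puma-/- libraries and 2 over the wild-type libraries. The ratio of its CPM was 84.8, with an exact interval of 23.3 to 703 that covers counting error only. Mgmt, Slc19a2 and Gdf15 fall outside the rule for named genes and were named after their values were seen. Ddit4, an inhibitor of mTORC1, missed the threshold with groups apart at 8.62 to 17.4 CPM in Mysm1-/-Puma-/- and 4.88 to 8.32 in wild type (1.06 ± 0.23, adjusted p = 0.0505). In the other direction Ptpn14, a phosphatase, had -0.57 ± 0.23 (adjusted p = 0.578).

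Of 20 tested regulators of p53, 3 rose and 0 fell: Ccng1, Trp53inp1 and Pvt1, a noncoding RNA beside Myc that was at 13.4 to 23.3 CPM in Mysm1-/-Puma-/- and at 1.72, 1.92, 6.34 and 7.59 in wild type (2.01 ± 0.35, adjusted p = 0.00525). Mdm2, the ligase that degrades p53 and is its target, was at 98.6 to 148 CPM in Mysm1-/-Puma-/- and 61.7 to 101.4 in wild type (0.63 ± 0.15, adjusted p = 0.104). Trp53 itself was at 53.4 to 88.4 CPM in Mysm1-/-Puma-/- and 49.6 to 69.8 in wild type (0.16 ± 0.15, adjusted p = 0.831), and the list median was 0.10. A further RNA of this pathway was found among the called genes after their values were seen. Gm16197, which RefSeq lists as Trp53cor1 or lincRNA-p21, is a long noncoding RNA induced by p53. It lies at chr17:29194419-29215906 on the minus strand, 12018 bases before Cdkn1a. It was at 11.2 to 19.2 CPM in Mysm1-/-Puma-/- (median 13.6), against 2.05, 2.08, 1.76 and 2.65 in wild type, without overlap (2.67 ± 0.28, adjusted p = 1.4e-05, and 2.87 with P and W libraries left out).

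**Figure D3:**
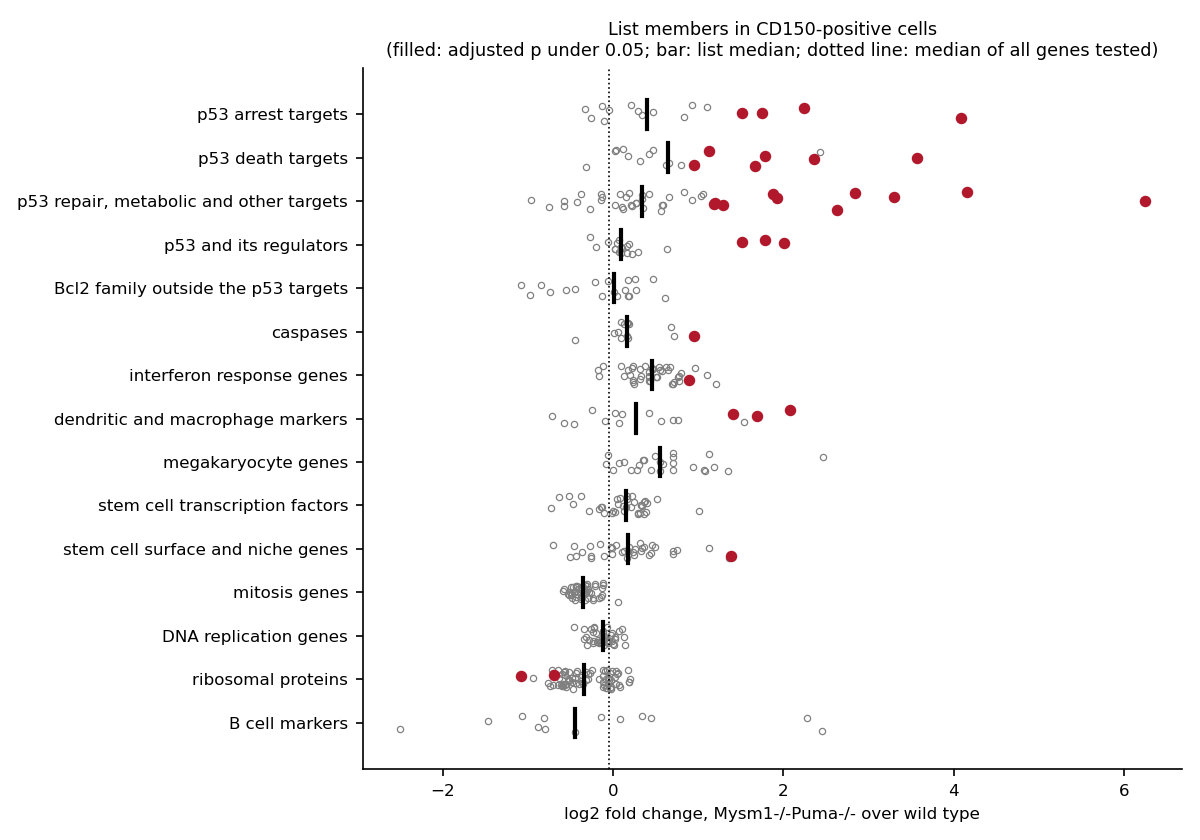
Log2 fold change of Mysm1-/-Puma-/- over wild type in CD150-positive cells (horizontal axis) for each tested member of 15 lists (rows). Filled points passed an adjusted p of 0.05, black bars are list medians and the dotted line is the median of all genes. Single members of the p53 target lists reach furthest to the right, and the medians of these lists are 0.40, 0.64 and 0.34. Megakaryocyte and interferon response genes have medians of 0.55 and 0.45. Mitosis genes and ribosomal proteins lie mostly left of the line, with medians of -0.36 and -0.34.

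Other large rises lay outside the 3 lists of p53 targets, which hold 20 of the 61 called genes, all of them rises. The 41 other called genes include the 9 falls. Mmp2, a gelatinase of the extracellular matrix, was at 24.7 to 47.7 CPM in Mysm1-/-Puma-/- (median 32.3) and at 7.10, 3.12, 5.51 and 6.96 in wild type (2.59 ± 0.25, adjusted p = 4.3e-06). Serpine2, an inhibitor of thrombin and related proteases, was at 47.0 to 97.5 CPM in Mysm1-/-Puma-/- (median 72.7), against 11.8, 21.7, 22.3 and 7.77 in wild type (2.20 ± 0.25, adjusted p = 2.5e-05). Tnfsf4, which encodes the T cell costimulator OX40L, was at 13.5 to 24.2 CPM in Mysm1-/-Puma-/- (median 18.2), against 4.16, 4.80, 4.93 and 4.54 in wild type (2.00 ± 0.21, adjusted p = 1.1e-05). These genes encode secreted or surface proteins, and none of the 3 had overlapping groups. Ier5, an immediate early response gene, was at 42.7 to 70.4 CPM in Mysm1-/-Puma-/-, against 22.9, 23.7, 16.8 and 33.3 in wild type (1.25 ± 0.18, adjusted p = 6e-04). Of 26 immediate early genes it was the only one called, and the list median was -0.03. Among genes named after their values were seen, 9030617O03Rik, listed by RefSeq as Dglucy, a D-glutamate cyclase, had 24.6 to 55.0 CPM in Mysm1-/-Puma-/-, against 2.66, 3.44, 4.32 and 10.7 in wild type (2.87 ± 0.34, adjusted p = 4.6e-05). Exoc4, an exocyst subunit, had 172 to 242 CPM in Mysm1-/-Puma-/-, against 109, 76.3, 120.2 and 90.0 in wild type (1.12 ± 0.15, adjusted p = 0.000187). Fat1, a giant cadherin, had 1.66 ± 0.24 (adjusted p = 0.00072), Gria3, a glutamate receptor subunit, 1.45 ± 0.22 (adjusted p = 0.00121), and Glipr1, a p53-regulated gene in mouse and human cells, 1.12 ± 0.16 (adjusted p = 0.000592). A930001C03Rik, a noncoding RNA, had 192 counts over the Mysm1-/-Puma-/- libraries and 0 over the wild-type libraries. It was at least 34.6-fold higher against a floor of 3 counts over the wild-type group, and its call ended without the P and W libraries (0.0672).

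Of 16 dendritic cell and macrophage markers 3 rose and 0 fell, with a list median of 0.26. The 3 are H2-Eb1, H2-Ab1 and Cd74, which take part in antigen presentation by major histocompatibility complex class II. H2-Eb1, a class II beta chain, was at 20.9 to 61.5 CPM in Mysm1-/-Puma-/- (median 34.4), against 9.32, 7.13, 10.8 and 7.46 in wild type (2.08 ± 0.30, adjusted p = 0.000692). H2-Ab1, another beta chain, was at 41.3 to 110.4 CPM in Mysm1-/-Puma-/- (median 56.4), against 31.4, 21.7, 25.1 and 25.4 in wild type (1.41 ± 0.25, adjusted p = 0.007). Cd74, the invariant chain, was at 32.4 to 135 CPM in Mysm1-/-Puma-/-, against 25.5, 16.3, 26.3 and 21.7 in wild type (1.69 ± 0.34, adjusted p = 0.0258). The call of Cd74 ended without B3 (0.0631), P2 (0.0511), D1 (0.0908), D2 (0.16), D3-4 (0.0796) or W1 (0.087). The summed level of the list was 273 to 532 CPM in Mysm1-/-Puma-/- and 190.5 to 248 in wild type, a sum that holds the class II genes too. The part of such cells in these values was not tested. H2-Aa, an alpha chain that overlaps H2-Ab1 on the other strand, missed the threshold (1.54 ± 0.38, adjusted p = 0.116). The other defining markers of the list had no call: Itgax was at 1.66 to 4.27 CPM in Mysm1-/-Puma-/- and 0.837 to 2.88 in wild type, C1qa at 2.68 to 4.58 CPM in Mysm1-/-Puma-/- and 1.76 to 3.36 in wild type, and Siglech at 6.94 to 35.9 CPM in Mysm1-/-Puma-/- and 20.7 to 48.8 in wild type.

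The values differed among the Mysm1-/-Puma-/- libraries, and H2-Eb1, H2-Ab1 and Cd74 were highest in B1, B3 and P2. B1 and B3 also held the most Igj, the J chain of antibodies, at 2448 and 1043 CPM, against 43.2 to 186 in wild type. Of 13 B cell markers 0 rose and 0 fell by edgeR, 2 had an unadjusted p under 0.05, and their summed level was 65.5 to 2538 CPM in Mysm1-/-Puma-/- and 97.4 to 243 in wild type. This sum includes Igj. Cd79a, a chain of the B cell receptor, was at 0.586 to 10.9 CPM in Mysm1-/-Puma-/- and 1.23 to 3.76 in wild type. The summed B cell markers were 156, 129.6 and 65.5 CPM in B5, B6 and P3, below the wild-type maximum, and H2-Eb1 was at 34.4, 22.4 and 26.4 CPM in these libraries. The part of B cells in the class II values was not tested. Fewer or more cells of a type and less or more RNA per cell cannot be told apart in such bulk samples. Of 16 T and NK cell markers Nkg7, a granule protein of cytotoxic cells, rose (1.02 ± 0.21, adjusted p = 0.0399), while the list median was -0.49 and Cd3e, which defines T cells, was at 0 to 6.54 CPM in Mysm1-/-Puma-/- and 0 to 5.77 in wild type. The Nkg7 call ended with P and W libraries left out (0.303) and without B1 (0.0721), B3 (0.0507), B6 (0.0502), P1 (0.0586), P2 (0.0643), D1 (0.156), D3-4 (0.203) or W1 (0.114).

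**Figure D4:**
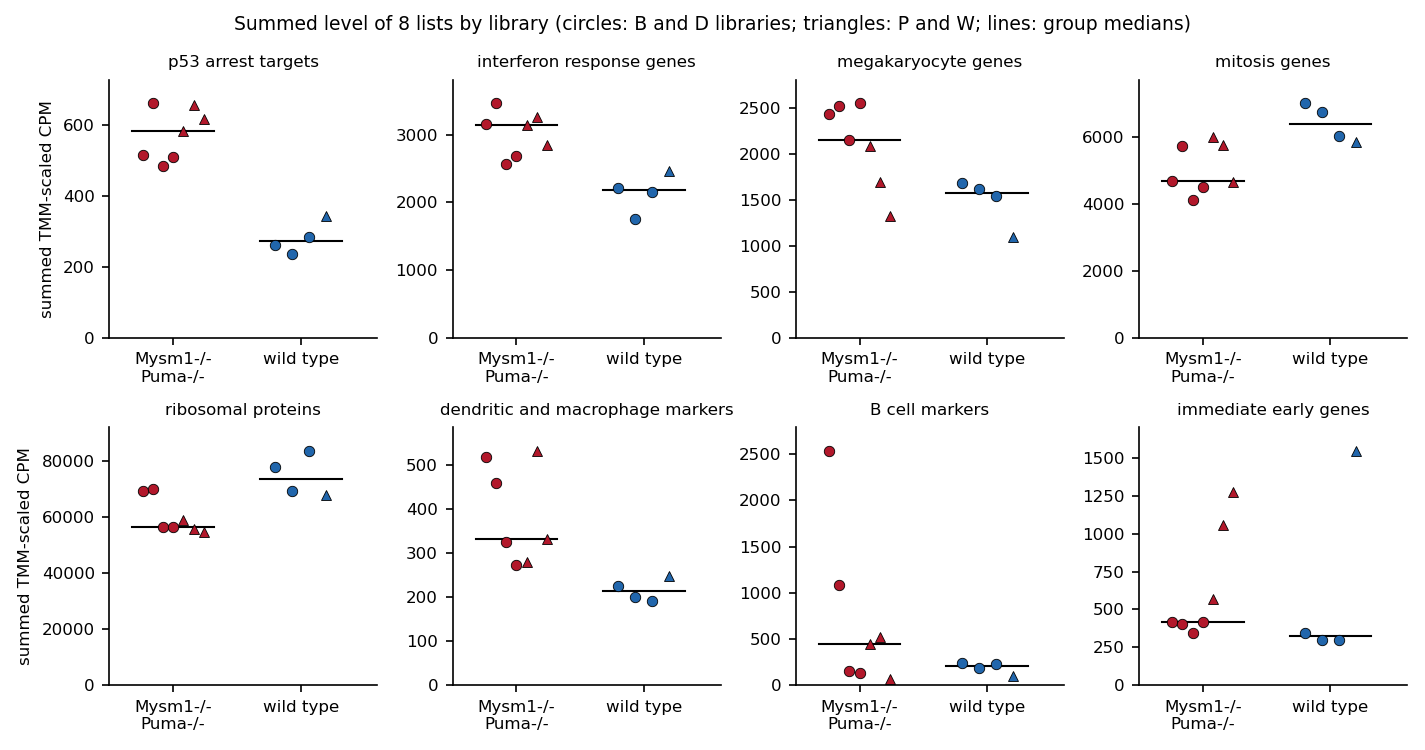
Summed TMM-scaled CPM of 8 lists (vertical axes, from 0) in each library, Mysm1-/-Puma-/- at the left and wild type at the right of each panel; circles are B and D libraries, triangles P and W libraries, and lines group medians. Given as Mysm1-/-Puma-/- against wild type, the groups do not overlap for p53 arrest targets (484 to 660.3 against 236 to 343), interferon response genes (2575 to 3464 against 1763 to 2471) and dendritic and macrophage markers (273 to 532 against 190.5 to 248). B cell markers, which include Igj, reach 2538 in B1, and immediate early genes are high in P2, P3 and W1.

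Interferon response genes had mostly positive log2 fold changes and few calls. Of 43 tested 1 rose and 0 fell, 40 lay above 0, 17 were higher and 0 lower at an unadjusted p under 0.05, and the median was 0.45 (0.55 without the P and W libraries, where 0 were called). Over all genes 44.9% lay above 0, and 955 of 20944 were higher and 601 lower at that p. Igtp, a guanosine triphosphatase induced by interferon gamma, was at 63.1 to 96.8 CPM in Mysm1-/-Puma-/- and at 43.0, 39.6, 45.2 and 48.4 in wild type (0.90 ± 0.17, adjusted p = 0.0104). Its call ended without D1 (0.0591), D2 (0.0659), D3-4 (0.0508) or the P and W libraries (0.157). Irgm2 (0.76 ± 0.17, adjusted p = 0.0508) and Iigp1 (1.11 ± 0.28, adjusted p = 0.132), relatives of Igtp, did not pass, although their groups did not overlap. The summed list was lowest in D2 (1763 CPM), the wild-type library of highest background, and within Mysm1-/-Puma-/- lowest in B5 (2575), whose background was highest there. Over the alternatives 0 to 9 genes of the list were called, with medians of 0.292 to 0.585. The part of background in these values was not tested beyond the fit without those libraries and a fit with background level as a covariate.

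Megakaryocyte and stem cell genes held values above 0 and almost no calls. Of 26 megakaryocyte genes 0 rose and 0 fell by edgeR, 9 were higher at an unadjusted p under 0.05 (955 of 20944 over all genes), 23 lay above 0 (44.9% over all genes) and the median was 0.55. Selp, which encodes P-selectin, was at 14.4 to 32.96 CPM in Mysm1-/-Puma-/- and 6.92 to 14.3 in wild type (1.08 ± 0.24, adjusted p = 0.0505). Itgb3, the integrin beta 3 chain, was at 68.7 to 138 CPM in Mysm1-/-Puma-/- and 29.01 to 66.4 in wild type (1.12 ± 0.30, adjusted p = 0.169), and Pf4, platelet factor 4, at 59.2 to 230.2 CPM in Mysm1-/-Puma-/- and 22.3 to 95.2 in wild type (1.18 ± 0.36, adjusted p = 0.304). The summed list ran from 1328 to 2553 CPM in Mysm1-/-Puma-/- and from 1103 to 1684 in wild type, so the groups overlapped, with P3 and W1 lowest in each. Of 37 stem cell transcription factors 0 were called, 5 were higher at an unadjusted p under 0.05 and the median was 0.15. Mecom, a factor needed by stem cells, was at 97.5 to 129 CPM in Mysm1-/-Puma-/- and 56.4 to 125 in wild type (0.25 ± 0.20, adjusted p = 0.799), and Hlf, another, at 134.5 to 180.5 CPM in Mysm1-/-Puma-/- and 71.8 to 159 in wild type (0.36 ± 0.22, adjusted p = 0.739). Of 36 stem cell surface and niche genes 1 rose and 0 fell, and the median was 0.18. Ly6a, which encodes Sca1, had 9.65 to 23.3 CPM in Mysm1-/-Puma-/- and 7.77 to 11.1 in wild type (0.75 ± 0.25, adjusted p = 0.378).

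Genes of the translation machinery were among the 9 that fell. Rpl36a, a protein of the large ribosomal subunit (chrX:131120193-131122601, plus strand), was at 226 to 326 CPM in Mysm1-/-Puma-/- (median 273), against 543, 535, 731 and 479 in wild type (-1.08 ± 0.15, adjusted p = 0.000488). Eef1g, a subunit of translation elongation factor 1 (chr19:9041531-9052969, plus strand), was at 371 to 552 CPM in Mysm1-/-Puma-/- (median 439), against 1016, 902, 949 and 848 in wild type (-1.01 ± 0.16, adjusted p = 0.0013). For both genes the groups were far apart in all 11 libraries. Rpl29, of the large subunit, was at 344 to 407 CPM in Mysm1-/-Puma-/-, against 582, 570, 676 and 626 in wild type (-0.70 ± 0.13, adjusted p = 0.0104), a call that ended without D3-4 (0.0713) or the P and W libraries (0.281). The remaining falls besides Mysm1 were named after their values were seen. Rpl22l1, a paralogue of the ribosomal protein Rpl22, was at 13.6 to 30.6 CPM in Mysm1-/-Puma-/-, against 42.9, 32.99, 46.3 and 36.2 in wild type (-1.08 ± 0.19, adjusted p = 0.00708), and ended without D3-4 (0.0558) or the P and W libraries (0.151). Rpl7l1, a ribosomal protein relative, had -0.58 ± 0.12 (adjusted p = 0.0421), and its call ended in 9 of the 11 fits that each left out 1 library, and with P and W libraries left out (0.296). The others, Gm6525, Gm15421 and Rps15a-ps4, had -1.62, -1.08 and -0.67. With P and W libraries left out, Gm15421 (0.281) and Rps15a-ps4 (0.339) lost their call. Gm15421 also ended without B3 (0.0622), B6 (0.0502), P2 (0.0547), P3 (0.0556), D1 (0.164) or D3-4 (0.102), and Rps15a-ps4 without D1 (0.0737) or D3-4 (0.154). Gm6525 and Gm15421 are annotated as pseudogenes and overlap Trim2 and Orc5. Ribosomal protein genes have many near-identical processed copies, and how reads with several matches were counted is not given in the sources used here, so the split of reads between these genes is uncertain.

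Across all 76 tested ribosomal protein genes 0 rose and 2 fell, 65 lay below 0, and 0 were higher and 35 lower at an unadjusted p under 0.05 (955 and 601 of 20944 over all genes), with a median of -0.34 (-0.29 without the P and W libraries). Rps3, of the small subunit, had -0.72 ± 0.16 (adjusted p = 0.0521), Rpl35 -0.70 ± 0.16 (adjusted p = 0.0772) and Rpl5, which also binds Mdm2, -0.52 ± 0.19 (adjusted p = 0.508), while Rplp0, of the stalk, had -0.02 ± 0.17 (adjusted p = 0.988). The summed level of the list was 54600 to 69980 CPM in Mysm1-/-Puma-/- and 67840 to 83730 in wild type. B1 and B3 (69270 and 69980) reached into the wild-type range, whose lowest value was in W1. The number called depended on the method, from 0 to 26 over the alternatives, with medians of -0.40 to -0.18.

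Genes of mitosis had mostly negative log2 fold changes and no call. Of 50 tested 0 rose and 0 fell by edgeR, 49 lay below 0, 21 were lower and 0 higher at an unadjusted p under 0.05, and the median was -0.36 (-0.44 without the P and W libraries). Over all genes 601 of 20944 were lower and 955 higher at that p. Nuf2, of the kinetochore, was at 104 to 122 CPM in Mysm1-/-Puma-/- and 132 to 190.0 in wild type (-0.45 ± 0.17, adjusted p = 0.513), and Kif2c, which takes microtubules apart, at 28.0 to 49.2 CPM in Mysm1-/-Puma-/- and 51.6 to 62.4 in wild type (-0.48 ± 0.19, adjusted p = 0.543). Mki67, the marker of cycling cells, was at 756 to 1488 CPM in Mysm1-/-Puma-/- and 1349 to 1450 in wild type and overlapped (-0.29 ± 0.19, adjusted p = 0.757). The summed list ran from 4120 to 6005 CPM in Mysm1-/-Puma-/- and from 5867 to 7020 in wild type, with only P1 above the lowest wild-type library. DNA replication genes had a median of -0.12, with 0 of 42 called and 1 lower at an unadjusted p under 0.05.

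Libraries labelled Mysm1-/-Puma+/-, which still hold a Puma allele, address what loss of the remaining Puma allele changes. The test of Mysm1-/-Puma-/- against Mysm1-/-Puma+/- called 0 of 20944 genes by edgeR, with 797 at an unadjusted p under 0.05 and 5 called by DESeq2, while edgeR called 9 without A4. Cdkn1a was at 16.96 to 28.1 CPM in Mysm1-/-Puma-/- and 11.9 to 24.6 in Mysm1-/-Puma+/-, a difference in log2 level of 0.27. Bbc3 was at 15.5 to 25.2 CPM in Mysm1-/-Puma-/- and 18.5 to 24.9 in Mysm1-/-Puma+/- (difference -0.07). Psrc1 was at 53.4 to 91.3 CPM in Mysm1-/-Puma-/- and 52.5 to 93.9 in Mysm1-/-Puma+/- (-0.03). For these genes the ranges overlapped. Mysm1 was at 67.7 to 87.7 CPM in Mysm1-/-Puma-/- and 96.3 to 118 in Mysm1-/-Puma+/- without overlap, but at a difference of -0.38 it did not pass. The Mysm1-/-Puma+/- range overlapped the 111 to 125 CPM of wild type (-0.19 ± 0.13, edgeR adjusted p = 0.668), although both knockout groups are labelled Mysm1-/-. Each group was also set against the same 4 wild-type libraries, so their values are only given side by side. The median over the mitosis list was -0.36 for Mysm1-/-Puma-/- and 0.21 for Mysm1-/-Puma+/- against wild type, and over the ribosomal proteins -0.34 for Mysm1-/-Puma-/- and -0.07 for Mysm1-/-Puma+/-. For the p53 death targets it was 0.64 for Mysm1-/-Puma-/- and 0.72 for Mysm1-/-Puma+/-.

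The same genotypes in CD150-negative cells gave the same sign for every called gene. There 149 genes rose and 341 fell of 21168 tested, 0.704% and 1.61%, with 3 libraries in each group. All 61 genes called in CD150-positive cells had the same sign, and 40 were called in both, which is 65.6% of the CD150-positive and 8.16% of the CD150-negative calls. Of the rises 34 of 52 and of the falls 6 of 9 were called in both. The libraries B1, B3, B5 and D2 bear the same names in both populations. The wild-type library D3-4 of the CD150-positive cells shares its numbers with D3 and D4 of the CD150-negative cells. Whether such libraries share animals is not said in the labels, so the populations may not be independent in either group. The fits treated all libraries as separate. Leaving out B1, B3, D2 or D3 of the CD150-negative cells gave 258, 292, 250 and 261 calls in place of 490.

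Cdkn1a was at 25.5 to 32.3 CPM in Mysm1-/-Puma-/- and 2.33 to 2.44 in wild type of the CD150-negative cells (log2 fold change 3.57 ± 0.23), and Eda2r at 21.3 to 27.6 CPM in Mysm1-/-Puma-/- and 0.218 to 1.46 in wild type (4.72 ± 0.38). Tnfsf4 reached 3.76 ± 0.56 and Epha2 3.57 ± 0.24. Wild-type levels of Tnfsf4 were 0.836 to 1.97 CPM there and 4.16 to 4.93 in CD150-positive cells. Bbc3 had 1.95 ± 0.28 (adjusted p = 0.000747) and Mysm1 -0.57 ± 0.15 (adjusted p = 0.0557). The largest falls by the rule were in Rftn2, a raft protein (-1.72 ± 0.37), Hnf4a, a nuclear receptor (-1.59 ± 0.16), Hist1h1b, a linker histone (-1.48 ± 0.16), and Rpl22l1 (-1.48 ± 0.19). In CD150-positive cells Hnf4a was at 6.73 to 19.4 CPM in Mysm1-/-Puma-/- and 16.0 to 25.4 in wild type (-0.79 ± 0.26, adjusted p = 0.378), and Rftn2 had -1.17 ± 0.43 (adjusted p = 0.485).

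**Figure D5:**
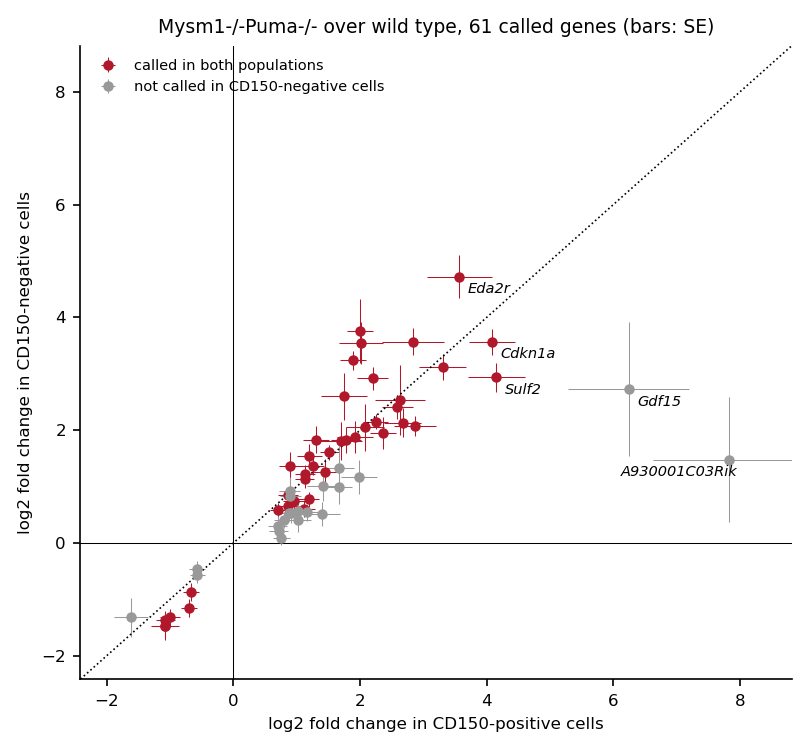
Log2 fold change of Mysm1-/-Puma-/- over wild type for the 61 genes called in CD150-positive cells, in CD150-positive cells (horizontal axis) and CD150-negative cells (vertical axis), with SE as bars. Red points are the 40 genes called in both populations, grey points those not called in CD150-negative cells, and the dotted line marks equal values; all 61 have the same sign. The fitted values of Gdf15 and A930001C03Rik rest on wild-type counts at or near 0 and are no measure of size.

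Of the mitosis genes 43 of 50 fell in CD150-negative cells (median -0.98), against 0 in CD150-positive cells (-0.36), and of the ribosomal proteins 37 of 76 (-0.60) against 2 (-0.34). Over all genes 1.61% fell in CD150-negative and 0.043% in CD150-positive cells. Totals of the compared libraries were 28066870 to 54339749 counts in CD150-negative cells and 25281099 or less in CD150-positive cells. The 2 numbers of calls are thus not on the same footing. The difference of the effect between populations was tested gene by gene over 21830 genes, and edgeR called 1, with 1011 at an unadjusted p under 0.05 and 4 called by DESeq2. None of the 61 genes was called there, and 12 had an unadjusted p under 0.05. The called gene was Actn4, an actin crosslinker that overlaps Capn12 on the other strand, whose effect was higher in CD150-positive cells by 1.28 ± 0.21 (adjusted p = 0.0284). It was at 90.1 to 113 CPM in Mysm1-/-Puma-/- and 72.8 to 101 in wild type of the CD150-positive cells (0.17 ± 0.13). In CD150-negative cells it was at 53.1 to 66.9 CPM in Mysm1-/-Puma-/- and 102 to 161 in wild type (-1.17 ± 0.18). No gene was called without the P and W libraries, or without B1, B3, B5, D2 or D4 of the CD150-negative or B3, P1, P2 or D2 of the CD150-positive cells, and without D3-4 another gene was called in its place.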

How the data were processed

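The deposited files hold counts of reads per gene, made by the authors and not normalized, and a matrix of CPM, counts scaled to library size that the authors computed for part of the genes. Per the submitters' processing notes, the tools were FastQC, Trimmomatic 0.33, TopHat2 2.0.9, Bowtie 1.0.0, featureCounts, and edgeR in R 3.4.2, with build mm9 (NCBIM37). The annotation, strand setting and treatment of reads with several matches are not given in the sources used here. Files held 23366 genes.

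Counts of all 17 CD150-positive libraries entered 1 fit (edgeR 4.0.16 in R 4.3.3, TMM scaling, filterByExpr, quasi-likelihood test, Benjamini-Hochberg adjusted p under 0.05), and Mysm1-/-Puma-/- was contrasted with wild type. Levels are TMM-scaled CPM. The promoter search left out chromosome 18. The SE is the log2 fold change over the root of F, an approximation. CD150-negative libraries were fitted apart, and the interaction over both populations. Every pair of replicate libraries differed by more than sampling noise (lowest chi-square per degree of freedom 27.4). The script was tested on simulated data. Alternatives were RLE, DESeq2 1.42.0, limma 3.58.1 on weighted counts and on deposited CPM + 1, no filter, only the compared libraries, background or naming series as covariates, a replicate block, and libraries left out. The fit without libraries of high background was added after seeing the data.

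The members and gene lists were chosen with earlier results of these data known. Named were Mysm1, Bbc3, the 12 largest rises and 12 largest falls called at an average log2 CPM of 1 or more, groups apart and a call without the P and W libraries, and up to 4 called members of each list by smallest p. For other contrasts the 4 largest in each direction were named. Predicted and pseudogene names were left out of that rule. Other genes, and list members that missed the threshold, were named after their values were seen. Some genes are not reported here.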

Additional observations from a re-analysis of the deposited data

Results flagged for a closer look

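Among 64 groups of libraries tested for a value far from the rest, 6 were flagged, and chance flags about 1 in 20. In wild type the lowest Phlda3 level was 0.352 CPM in D3-4, the lowest Zfp365 level 0.722 CPM in D1 and the highest Epha2 level 6.38 CPM in W1. In Mysm1-/-Puma-/- the highest Ccng1 level was 318 CPM in B3, the highest Zmat3 level 121 CPM in B5 and the highest Nkg7 level 36.98 CPM in B5, the library of highest background in that group. Actn4 differed in its effect between CD150-positive and CD150-negative cells by 1.28 on the log2 scale (edgeR interaction, adjusted p = 0.0284), a call that was lost without any of several single libraries.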

How the results depend on the processing

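No direction reversed among the 32 genes named by rule, whose direction was compared under each alternative. Of these 23 kept their call under every alternative but P against W alone, and 9 under that one too, an arm of 1 library that is assumed to vary like the other groups. The count of 61 calls became 205 with DESeq2, 132 with limma-trend on the deposited CPM, 108 with background level as a covariate, 38 without the P and W libraries and 10 with P against W alone. Leaving out each library in turn gave 46 to 90 calls, and 38 of the 61 genes were called in every such fit. Against Mysm1-/-Puma+/- the count of 0 became 5 with DESeq2 and 0 to 9 with a library left out. In CD150-negative cells the count of 490 became 1038 with DESeq2 and 250 to 574 with a library left out. For the difference between populations the count of 1 became 4 with DESeq2, 0 without the P and W libraries and 0 to 1 with a library left out. With the replicate block the count was 308 in CD150-positive cells (108 higher, 200 lower) and 93 in CD150-negative cells, and the calls of Mysm1 (0.109), Rpl29 (0.0772), Slc19a2 (0.0609), Gm6525 (0.0836), Rpl7l1 (0.0995), Rps15a-ps4 (0.161) and A930001C03Rik (0.121) were lost. The numbers are not shown to pair the samples: in CD150-positive cells deviations of B1 and D1 correlated at 0.01 and those of P1 and W1 at 0.46, and in CD150-negative cells B3 and D3 alone share a number. The cause of these shifts was not tested. Depth limits genes near 0 in wild type, such as Gdf15 and A930001C03Rik, whose folds rest on 2 and 0 counts.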

Other observations

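Imprinted growth genes, some of which are known to keep stem cells quiescent, held no call. Of 19 tested 0 passed by edgeR, 1 was higher and 3 lower at an unadjusted p under 0.05, 14 lay below 0 and the median log2 fold change was -0.50. Over all 20944 genes 955 were higher and 601 lower at that p, and 44.9% lay above 0. Grb10, an adaptor that restrains insulin signalling, was at 47.9 to 73.4 CPM in Mysm1-/-Puma-/- and 74.7 to 100.3 in wild type, without overlap (-0.58 ± 0.13, adjusted p = 0.0508). Meg3, a maternally expressed noncoding RNA, was at 3.54 to 10.9 CPM in Mysm1-/-Puma-/- and 11.4 to 21.4 in wild type (-1.17 ± 0.34, adjusted p = 0.256), and H19, another, at 0.521 to 2.49 CPM in Mysm1-/-Puma-/- and 1.78 to 7.32 in wild type (-1.70 ± 0.56, adjusted p = 0.383). Erythroid genes had a median of -0.14 in CD150-positive and -0.99 in CD150-negative cells, with 0 of 20 called in either, and Klf1, a red cell factor, was at 9.36 to 37.6 CPM in Mysm1-/-Puma-/- and 36.6 to 45.8 in wild type of the CD150-positive cells (-0.81 ± 0.44, adjusted p = 0.716). Lymphoid priming genes summed to 856 to 3620 CPM in Mysm1-/-Puma-/- and 810.3 to 1296 in wild type, with 0 of 25 called. Their highest sums, 3620 in B1, 2270 in B3 and 2143 in P2, include Igj at 2448, 1043 and 486 CPM. The list median was -0.09, and 13 of the 25 lay below 0.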
